A study of Homo sapiens with 12 samples.

Results

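The ligands of the ERBB receptors were examined as 10 genes, EGF, TGFA, AREG, EREG, BTC, HBEGF, EPGN, NRG1, NRG2 and NRG4, which were matched by symbol to Ensembl identifiers and make up 10 of the 58051 genes in the count tables. Poly(A) RNA was sequenced from FaDu cells, a line from a hypopharyngeal squamous cell carcinoma, and from Cal27 cells, a line from a squamous cell carcinoma of the tongue. Each line was profiled as parental cells, as an afatinib-resistant derivative (FaDu AfaR and Cal27 AfaR) and as an erlotinib-resistant derivative (FaDu ErlR and Cal27 ErlR), with 2 biological replicates per group and 12 libraries in all. No genetic change was introduced into any group, and each resistant derivative is a population selected by stepwise escalation of the inhibitor in 1 parental line, so that each group describes 1 cell model. By the study's methods the resistant cells were maintained under the drug and cultured without it for a short time before experiments, and the parental cells were not under selection. The study reported that parental Cal27 cells were already less sensitive to both inhibitors than parental FaDu cells. The comparisons ask how the mRNA of the ligands differed between cells selected for resistance to an EGFR inhibitor or a pan-ERBB inhibitor and the parental cells of the same line.

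The ERBB family comprises EGFR, ERBB2, ERBB3 and ERBB4, receptor tyrosine kinases that dimerize when a ligand binds and signal through RAS and ERK and through PI3K and AKT. The ligands are made as membrane-anchored precursors, and metalloproteases of the ADAM family release them from the cell surface. EGF, TGFA (transforming growth factor alpha), AREG (amphiregulin) and EPGN (epigen) bind EGFR, while HBEGF (heparin-binding EGF-like growth factor), BTC (betacellulin) and EREG (epiregulin) bind EGFR and ERBB4. The neuregulins NRG1 and NRG2 bind ERBB3 and ERBB4, and NRG4 binds ERBB4. Squamous epithelia and squamous carcinomas are known to make several EGFR ligands that act on the cells that release them, and erlotinib blocks the EGFR kinase whereas afatinib binds covalently to the kinases of EGFR, ERBB2 and ERBB4.

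Coordinates are those of the count tables, on build GRCh38. EPGN (chr4:74308473-74315307), EREG (chr4:74365143-74388751), AREG (chr4:74445134-74455009) and BTC (chr4:74744759-74794686) are neighbours within 486 kb of chromosome 4, with BTC on the minus strand and the other genes on the plus strand. EGF (chr4:109912884-110012266, plus strand) lies far from them on the same chromosome. HBEGF (chr5:140332843-140346631) and NRG2 (chr5:139846779-140043299) lie 289.5 kb apart on the minus strand of chromosome 5. TGFA (chr2:70447280-70554193) and NRG4 (chr15:75935969-76059795) lie alone on the minus strand of their chromosomes. NRG4 shared 1917 bases of exon, 38.1% of its exon length, with FBXO22 on the opposite strand, and the strand setting of the counting is not given in the sources used here, so its counts are uncertain.

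Promoter windows of 300 bases, from 250 before to 50 after the start site, were taken from RefSeq (GRCh38.p14) for 9 of the 10 genes. NRG1 was left out of this step. The windows of AREG (chr4:74444886-74445185, plus strand), EREG (chr4:74364895-74365194, plus strand), TGFA (chr2:70553777-70554076, minus strand) and HBEGF (chr5:140346554-140346853, minus strand) are shown because each of these mRNAs fell in Cal27 AfaR. That of BTC (chr4:74794474-74794773, minus strand) is shown because its mRNA moved the other way. NRG2 mRNA rose there as well, and the NRG2 windows are not shown. Each is written 5′ to 3′ on the strand of the gene, and capitals mark every match, on either strand, to an AP-1 site (TGANTCA), a CRE (TGACGTCA), a TATA box (TATAAA), a GC box (GGGCGG), a TEAD site (GGAATG) or a CArG box.
AREG: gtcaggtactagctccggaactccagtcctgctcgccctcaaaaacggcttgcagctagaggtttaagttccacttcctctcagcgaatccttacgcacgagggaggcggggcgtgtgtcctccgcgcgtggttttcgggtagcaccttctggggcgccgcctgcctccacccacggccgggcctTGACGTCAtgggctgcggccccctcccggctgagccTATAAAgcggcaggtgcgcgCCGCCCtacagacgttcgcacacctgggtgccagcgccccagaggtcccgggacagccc
EREG: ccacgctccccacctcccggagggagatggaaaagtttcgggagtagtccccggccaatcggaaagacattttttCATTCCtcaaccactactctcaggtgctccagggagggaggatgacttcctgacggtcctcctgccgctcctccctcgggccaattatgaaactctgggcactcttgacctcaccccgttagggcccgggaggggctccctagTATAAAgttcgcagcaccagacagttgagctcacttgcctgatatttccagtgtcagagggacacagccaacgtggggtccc
TGFA: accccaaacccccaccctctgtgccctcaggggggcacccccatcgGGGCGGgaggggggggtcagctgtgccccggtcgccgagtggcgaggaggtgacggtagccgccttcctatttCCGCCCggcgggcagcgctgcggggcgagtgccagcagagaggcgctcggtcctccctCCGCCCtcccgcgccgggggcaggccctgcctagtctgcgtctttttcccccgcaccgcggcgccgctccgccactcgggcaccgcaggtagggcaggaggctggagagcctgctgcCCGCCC
HBEGF: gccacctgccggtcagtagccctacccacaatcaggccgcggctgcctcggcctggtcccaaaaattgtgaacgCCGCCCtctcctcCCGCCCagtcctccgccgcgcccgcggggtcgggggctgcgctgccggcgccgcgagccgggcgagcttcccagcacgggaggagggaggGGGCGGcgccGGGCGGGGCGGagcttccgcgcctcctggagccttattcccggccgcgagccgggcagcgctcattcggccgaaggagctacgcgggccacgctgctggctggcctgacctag
BTC: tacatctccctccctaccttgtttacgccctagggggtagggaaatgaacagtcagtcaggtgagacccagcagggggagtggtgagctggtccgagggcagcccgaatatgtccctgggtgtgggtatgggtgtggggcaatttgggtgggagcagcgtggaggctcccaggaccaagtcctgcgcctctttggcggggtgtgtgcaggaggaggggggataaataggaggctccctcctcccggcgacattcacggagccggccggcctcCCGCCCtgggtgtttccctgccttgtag

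The AREG window held a CRE at -65 to -58 from the start site, a TATA box at -29 to -24 and a GC box at -9 to -4. The EREG window held a TATA box at -32 to -27 and a TEAD site at -175 to -170, and the EPGN window held a TATA box at -29 to -24, at the same place as in AREG. A TATA box occurred in 11.5% of the 35116 human promoter windows in the same table and a CRE in 1.85%. The TGFA and HBEGF windows shown held 4 and 5 GC boxes and no match to the other motifs, 2 of the boxes of HBEGF sharing a base. Another TGFA window (chr2:70553397-70553696, minus strand), which is not shown, held no match to any of the motifs. The BTC window held 1 GC box. A GC box occurred in 45.0% of all windows. In the EGF window, which is not shown, an AP-1 site at -17 to -11 overlapped a TEAD site at -12 to -7. AP-1 sites occurred in 7.71%, TEAD sites in 14.0% and CArG boxes in 1.29% of windows. A match describes letters and not binding, and the windows do not cover enhancers.

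Between 16334937 and 23399259 counts per library fell on genes (median 16584450), and ERCC spike-in RNAs took a further 3.86% to 5.82%. The FaDu parental and FaDu AfaR libraries held 20156109 to 23399259 counts and 5.64% to 5.82% ERCC. All other libraries held 16334937 to 16689855 counts and 3.86% to 4.60% ERCC. Levels are given as TMM-normalized CPM, which is a count scaled to the depth of its library, and 3 counts correspond to 0.128 to 0.184 CPM. Levels of different genes are compared as RPKM, which is CPM per kilobase of exon. Tests are edgeR quasi-likelihood tests on raw counts over all genes, and a gene passed at a Benjamini-Hochberg adjusted p under 0.05. The p-values measure the spread between 2 cultures of each model. Of 10 squamous epithelial markers, all were detected in every library, and their summed level was 3976 to 13450 CPM in the 10 libraries other than Cal27 AfaR and 1051 to 1159 CPM in Cal27 AfaR. In Cal27 AfaR 8 of the 10 markers were lower than in parental cells, beside 18.2% of all genes tested. The keratin gene KRT5 stood at 309 and 420 CPM against 1993 and 2861. Of 8 mesenchymal markers, 7 were higher, beside 19.5% of all genes tested. Vimentin (VIM) was at 1122 and 1268 CPM in Cal27 AfaR against 17.0 to 25.3 CPM in the other 10 libraries.

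In FaDu parental cells, AREG was the most abundant ligand mRNA per length, and in Cal27 parental cells it shared the top with HBEGF and EREG. The RPKM of AREG was 28.8 ± 7.02 (SD, n = 2) in FaDu and 18.6 ± 4.75 in Cal27. In FaDu parental cells EREG followed at 16.7 ± 1.57 RPKM, then TGFA at 9.95 ± 1.96, NRG1 at 5.40 ± 0.184, HBEGF at 2.18 ± 0.0124, BTC at 1.44 ± 0.0563, NRG4 at 0.914 ± 0.0512 and NRG2 at 0.153 ± 0.109. The ranges of neighbours in that order did not overlap down to NRG2, and EPGN and EGF came last with overlapping ranges, at 0.0277 and 0.0249 RPKM. In Cal27 parental cells AREG, HBEGF (15.6 ± 2.19 RPKM) and EREG (15.3 ± 0.654) could not be ordered beyond their spread. TGFA (12.1 ± 2.71) and NRG1 (7.97 ± 3.78) came next with overlapping ranges, and BTC, EGF, EPGN, NRG2 and NRG4 lay between 0.0231 and 0.445 RPKM.

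The parental lines differed in HBEGF, EGF, NRG4 and BTC. Of the 9 ligands tested between Cal27 and FaDu parental cells, 4 passed, 2 higher and 2 lower in Cal27, where 55.6% of all genes tested passed (28.7% higher and 26.8% lower). The share of higher genes among those that passed was 51.7% by TMM and 82.2% by ERCC scaling. HBEGF counted 42.3 and 51.6 CPM in Cal27 and 6.60 and 6.54 CPM in FaDu parental cells, with no overlap and a log2 fold change of 2.83 (standard error [SE] 0.470, edgeR adjusted p = 0.000255). EGF was read in 25 and 32 counts (1.46 and 1.87 CPM) in Cal27 and in 2 and 4 counts (0.0970 and 0.208 CPM) in FaDu. The ratio of EGF was 11.0 with a 95% counting interval of 4.77 to 31.3 (edgeR adjusted p = 0.000614).

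NRG4 was the reverse, at 4.41 and 4.78 CPM in FaDu parental cells and 3 and 1 counts in Cal27. The ratio of FaDu to Cal27 was 39.4, with a 95% counting interval of 15.1 to 146.0 (edgeR adjusted p = 1.86e-05). In the remaining Cal27 libraries NRG4 had 0 or 1 count, and FBXO22, which overlaps it on the other strand, was at 28.8 to 59.1 CPM in Cal27 and 41.0 to 51.5 CPM in FaDu. NRG4 was thus near 0 in 6 libraries in which FBXO22 was read. BTC was lower in Cal27, at 1.11 and 1.40 CPM against 4.17 and 3.95 CPM (log2 fold change -1.69, edgeR adjusted p = 0.0115), and this difference missed the threshold without Cal27 parental replicate 1 (-1.53, adjusted p = 0.0677) and with ERCC scaling (-1.11, adjusted p = 0.0579). AREG, TGFA, EREG, NRG1 and NRG2 did not pass between the parental lines. The 95% intervals of their log2 differences were -1.39 to 0.13 for AREG, -0.40 to 0.96 for TGFA, -0.79 to 0.53 for EREG, -0.16 to 1.28 for NRG1 and -3.09 to 0.37 for NRG2.

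**Figure D1:**
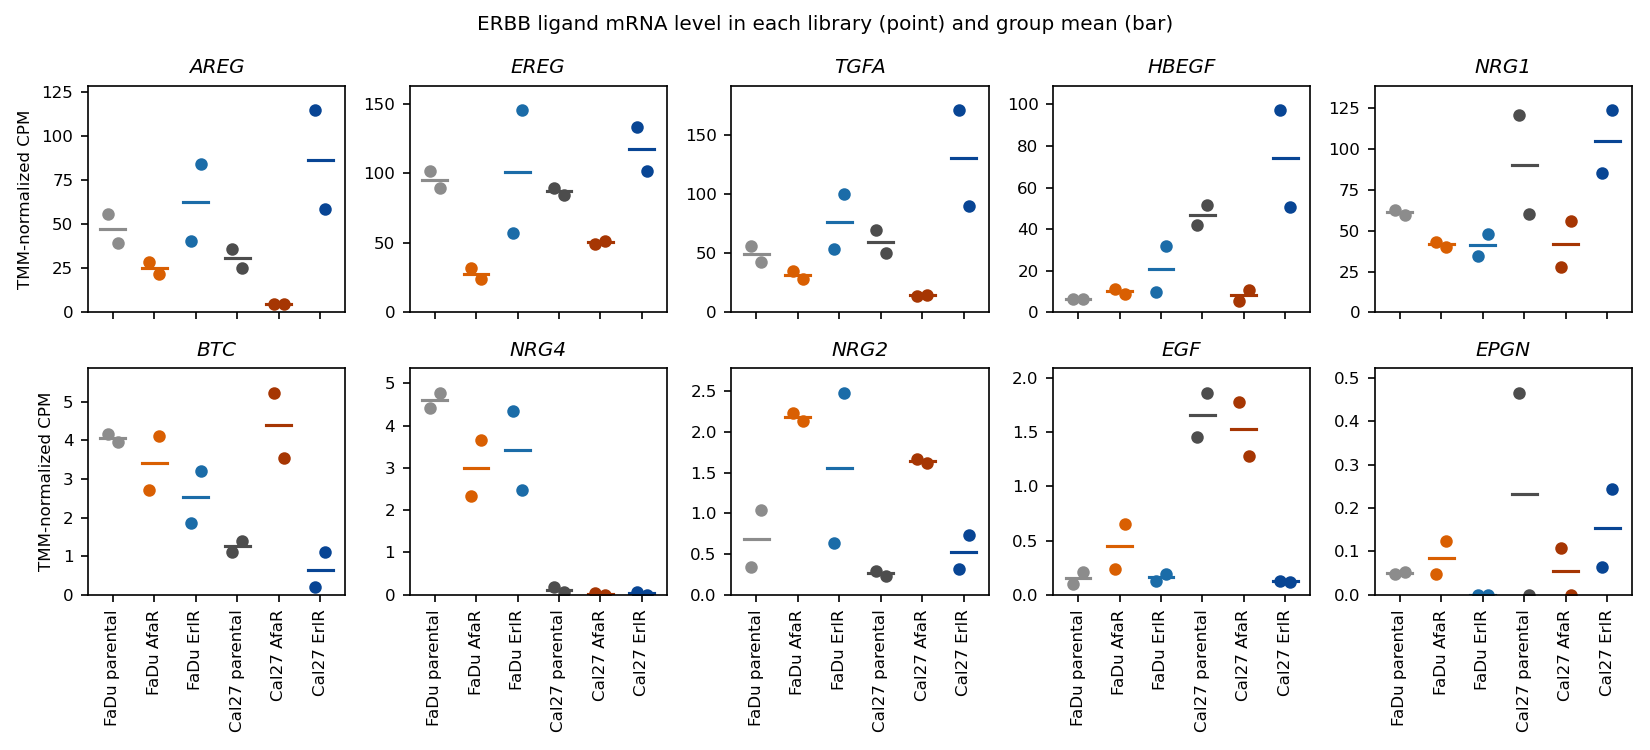
TMM-normalized CPM (y axes, each from 0 with its own scale) of the 10 ERBB ligand genes in the 6 groups (x axis), with a point for each of the 2 libraries of a group and a bar at their mean. AREG, TGFA and HBEGF are low in Cal27 AfaR, where AREG is at 4.59 and 5.04 CPM, NRG4 is near 0 in the Cal27 libraries, and FaDu ErlR and Cal27 ErlR show wide gaps between replicates.

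In Cal27 AfaR the ligand transcripts changed in both directions. Of 8 ligands tested against Cal27 parental cells, 5 fell (AREG, HBEGF, TGFA, NRG1 and EREG) and 2 rose (NRG2 and BTC). Among all 15269 genes tested, 37.6% passed, 18.2% lower and 19.5% higher. The median log2 fold change of the 8 ligands was -0.947 and that of all genes 0.0. EPGN and NRG4 had too few counts to be tested, and EPGN had 0 to 8 counts in each of the 12 libraries, at most 0.466 CPM.

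AREG, which binds EGFR with low affinity and is itself induced by EGFR signaling in many epithelia, was at 36.3 and 25.2 CPM in Cal27 parental replicates 1 and 2 and at 4.59 and 5.04 CPM in Cal27 AfaR. The groups did not overlap, and the log2 fold change was -2.67 (SE 0.329, 95% interval -3.41 to -1.93, edgeR adjusted p = 0.000302). TGFA, the closest relative of EGF in its binding to EGFR, was at 69.4 and 50.4 CPM in parental cells and 13.7 and 15.0 CPM in Cal27 AfaR (log2 fold change -2.06, SE 0.288, edgeR adjusted p = 0.00061). EGF itself was not among the changed ligands, at 1.46 and 1.87 CPM in parental and 1.78 and 1.28 CPM in resistant cells, with a 95% interval of the log2 difference of -1.07 to 0.84.

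HBEGF, which also binds heparan sulfate on the cell surface, was at 42.3 and 51.6 CPM in parental cells and 5.56 and 10.9 CPM in Cal27 AfaR, a log2 fold change of -2.51 (SE 0.355, edgeR adjusted p = 0.000644). EREG was the ligand that fell least in this group, from 89.8 and 84.5 CPM to 49.2 and 51.6 CPM, a log2 fold change of -0.79 (SE 0.151, edgeR adjusted p = 0.00329). In the fit of all 12 libraries the EREG difference missed the threshold (-0.79, adjusted p = 0.0607). BTC rose from 1.11 and 1.40 CPM to 5.23 and 3.54 CPM (log2 fold change 1.81, SE 0.542, edgeR adjusted p = 0.0267). BTC missed the threshold without Cal27 parental replicate 1 (adjusted p = 0.0866), Cal27 AfaR replicate 1 (0.163) or Cal27 AfaR replicate 2 (0.0524), with log2 fold changes between 1.49 and 2.07.

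Of the neuregulins, NRG1 (chr8:31639386-32767959, plus strand) was at 120 and 60.0 CPM in Cal27 parental cells and 27.7 and 56.1 CPM in Cal27 AfaR, a log2 fold change of -1.11 (SE 0.370, edgeR adjusted p = 0.0407). Its nearest libraries of the 2 groups were 60.0 and 56.1 CPM. The NRG1 fold change was -0.52 without Cal27 parental replicate 1 (adjusted p = 0.264) and -0.69 without Cal27 AfaR replicate 1 (adjusted p = 0.246), and it did not pass with DESeq2 (adjusted p = 0.139). NRG2, a neuregulin best known from the nervous system, had 5 and 4 counts in parental cells and 31 and 28 counts in Cal27 AfaR. The ratio of NRG2 was 6.29 with a 95% counting interval of 3.10 to 14.4 (edgeR adjusted p = 0.00674), at a level of 1.67 and 1.62 CPM in the resistant cells.

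In FaDu AfaR fewer ligands passed. EREG and NRG1 fell, 2 of the 8 ligands tested and 0 rose, where 17.9% of all 15092 genes tested passed (7.5% lower and 10.4% higher). Of the genes that passed in FaDu AfaR, 58.0% were higher by TMM scaling, 71.7% by upper-quartile and 90.5% by ERCC scaling, and EREG passed under each, whereas NRG1 was at -0.50 by upper-quartile scaling and -0.39 by ERCC scaling and did not pass. The median log2 fold change of the 8 ligands was -0.603 and that of all genes -0.001. EREG was at 102 and 89.1 CPM in FaDu parental cells and 31.8 and 24.0 CPM in FaDu AfaR, a log2 fold change of -1.80 (SE 0.352, edgeR adjusted p = 0.0124). EREG missed the threshold without FaDu parental replicate 1 (-1.70, adjusted p = 0.0711) or FaDu AfaR replicate 2 (-1.60, adjusted p = 0.0859). NRG1 was at 62.7 and 59.7 CPM in parental and 43.1 and 40.2 CPM in resistant cells (log2 fold change -0.57, SE 0.155, edgeR adjusted p = 0.0341), a small difference that missed the threshold without any 1 of the 4 libraries (adjusted p from 0.0622 to 0.191), with upper-quartile scaling (0.0516), with ERCC scaling (0.115) and in the fit of all 12 libraries (0.272).

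AREG and TGFA lay below both parental libraries in FaDu AfaR without passing. AREG was at 28.4 and 21.8 CPM against 55.7 and 39.3 CPM (log2 fold change -0.94, 95% interval -1.64 to -0.25, edgeR adjusted p = 0.0628), and TGFA at 35.2 and 28.0 CPM against 56.3 and 42.5 CPM (-0.66, adjusted p = 0.112). HBEGF was at 11.1 and 9.08 CPM against 6.60 and 6.54 CPM, above the parental libraries, with a log2 fold change of 0.59 (95% interval -0.38 to 1.57, edgeR adjusted p = 0.357). NRG2 was likewise above its parental values, at 2.23 and 2.14 CPM against 0.340 and 1.04 CPM (log2 fold change 1.65, edgeR adjusted p = 0.105). BTC and NRG4 had log2 fold changes of -0.27 and -0.63 and did not pass. EGF was too low to be tested in FaDu, with 2 and 4 counts in parental cells, 5 and 16 in FaDu AfaR and 2 and 3 in FaDu ErlR.

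**Figure D2:**
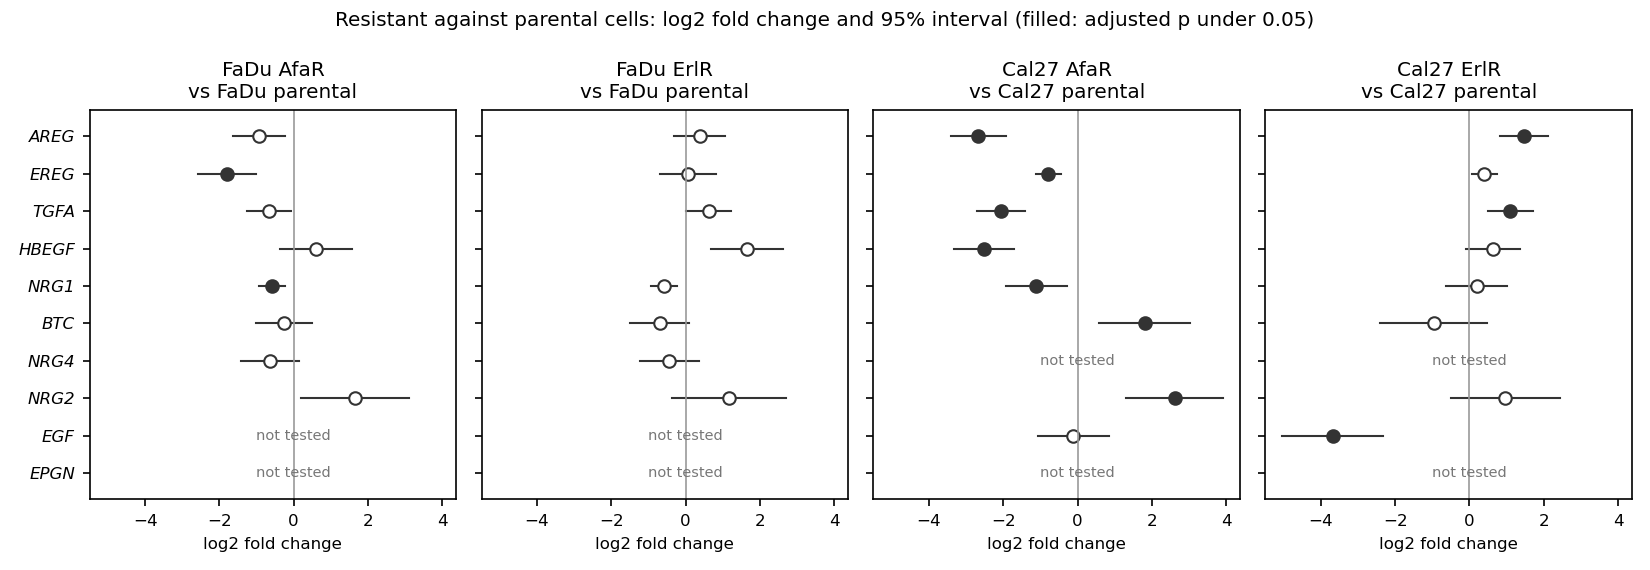
Log2 fold change (x axis) of each ERBB ligand (y axis) in the 4 resistant models against the parental cells of the same line, with 95% intervals from edgeR; filled points passed at an adjusted p under 0.05 and open points did not. Of 8 ligands tested per model, 2 passed for FaDu AfaR and 0 for FaDu ErlR, against 7 for Cal27 AfaR and 3 for Cal27 ErlR. Of all genes tested, 17.9%, 4.18%, 37.6% and 27.6% passed, in that order. Ligands with too few counts are marked as not tested.

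In Cal27 ErlR the direction of AREG and TGFA was opposite to that in Cal27 AfaR. Of 8 ligands tested, AREG and TGFA rose and EGF fell, where 27.6% of all genes passed (12.3% higher and 15.3% lower). AREG was at 115 and 58.6 CPM in Cal27 ErlR replicates 1 and 2 against 36.3 and 25.2 CPM in parental cells (log2 fold change 1.47, SE 0.290, edgeR adjusted p = 0.00587). TGFA was at 171 and 89.8 CPM against 69.4 and 50.4 CPM (log2 fold change 1.10, SE 0.270, edgeR adjusted p = 0.0157). The resistant libraries of both genes lay above the parental ones, but replicate 1 was 1.96 times replicate 2 for AREG and 1.91 times for TGFA. Without Cal27 ErlR replicate 1 the TGFA fold change was 0.57 (adjusted p = 0.0976) and that of AREG 0.91, and TGFA also missed the threshold without Cal27 parental replicate 2 (0.91, adjusted p = 0.0697).

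EGF was read in 2 and 2 counts in Cal27 ErlR, at 0.128 and 0.122 CPM and below the level of 3 counts, against 25 and 32 counts in parental cells. The ratio of parental to resistant cells was 13.3 with a 95% counting interval of 4.92 to 50.5 (edgeR adjusted p = 0.00258). EREG was at 133 and 101 CPM against 89.8 and 84.5 CPM, a log2 fold change of 0.40 that did not pass (95% interval 0.07 to 0.74, edgeR adjusted p = 0.0735). HBEGF, at 97.2 and 50.9 CPM against 42.3 and 51.6 CPM, overlapped the parental range (log2 fold change 0.63, edgeR adjusted p = 0.172). BTC was at 0.192 and 1.10 CPM against 1.11 and 1.40 CPM, which gave -0.96 on the log2 scale (edgeR adjusted p = 0.290). NRG1 and NRG2 did not pass, with 95% intervals of -0.62 to 1.00 and -0.51 to 2.45.

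In FaDu ErlR 0 of the 8 ligands tested passed by edgeR, where 4.18% of all genes did (2.58% higher and 1.6% lower), the share of higher genes among them being 61.6% by TMM and 98.4% by ERCC scaling. At an unadjusted p under 0.05 there were 3 ligands, HBEGF, TGFA and NRG1, beside 3205 of all 15092 genes. DESeq2 called 1, NRG1 (log2 fold change -0.57, adjusted p = 0.0252), beside 1142 of all 15092 genes. HBEGF was at 9.97 and 31.8 CPM in FaDu ErlR replicates 1 and 2 against 6.60 and 6.54 CPM in parental cells, a log2 fold change of 1.65 with a 95% interval of 0.68 to 2.63 (edgeR adjusted p = 0.0656). Both resistant libraries lay above the parental ones, and replicate 2 was 3.19 times replicate 1. NRG1 was at 34.8 and 47.9 CPM against 62.7 and 59.7 CPM (log2 fold change -0.58, edgeR adjusted p = 0.0706). TGFA, AREG and EREG overlapped the parental ranges, at 53.3 and 100 CPM, 40.5 and 84.3 CPM, and 57.2 and 145 CPM in replicates 1 and 2.

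Replicate 2 of FaDu ErlR was above replicate 1 for 8 of the 10 ligands, by 2.08 times for AREG, 2.54 times for EREG and 1.88 times for TGFA. In the same pair 13 of 15 ERK output genes, targets and feedback inhibitors of the ERK pathway, were higher in replicate 2, with DUSP6 at 38.6 and 78.4 CPM and SPRY4 at 6.01 and 18.9 CPM. The part of this difference in the ligand results was not tested. Without FaDu ErlR replicate 1, HBEGF (log2 fold change 2.26, adjusted p = 0.00302) and TGFA (1.00, adjusted p = 0.0366) passed by edgeR, and without FaDu ErlR replicate 2 AREG, EREG and NRG2 changed sign (-0.24, -0.75 and -0.11).

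The AfaR and ErlR derivatives of each line were then set against each other. The parental libraries of the line were part of these fits, through the spread, the scaling and the gene filter, but not of the contrast. Cal27 AfaR and Cal27 ErlR differed in all 8 ligands tested, 3 higher and 5 lower in Cal27 AfaR, where 49.6% of all genes passed (26.5% higher and 23.2% lower). The largest of these differences was in AREG, at 4.59 and 5.04 CPM in Cal27 AfaR against 115 and 58.6 CPM in the ErlR cells (log2 fold change -4.14, SE 0.337, edgeR adjusted p = 1.93e-05). TGFA (-3.16), HBEGF (-3.15), NRG1 (-1.30) and EREG (-1.19) were also lower, and BTC (2.77) and NRG2 (1.65) higher, in Cal27 AfaR, with edgeR adjusted p between 4.16e-05 and 0.0269. EGF had 55 counts in Cal27 AfaR and 4 in Cal27 ErlR, a ratio of 12.3 (95% counting interval 4.55 to 46.8). NRG1 and NRG2 missed the threshold with DESeq2 (adjusted p of 0.0572 and 0.0822). NRG1 did so also without Cal27 AfaR replicate 1 (-0.89) or Cal27 ErlR replicate 2 (-1.04), and NRG2 without Cal27 AfaR replicate 1 or 2 or Cal27 ErlR replicate 1 (1.18 to 1.68). Without Cal27 ErlR replicate 1 the fold change of BTC was 2.01, and without replicate 2 it was 4.47.

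In FaDu, TGFA, AREG and EREG were lower in FaDu AfaR than in FaDu ErlR, 3 of 8 ligands tested and 0 higher, where 15.7% of all genes passed (8.06% higher and 7.65% lower). Their log2 fold changes were -1.28 for TGFA (edgeR adjusted p = 0.0151), -1.32 for AREG (0.0232) and -1.87 for EREG (0.0106). The 2 groups did not overlap for these genes, EREG for example standing at 31.8 and 24.0 CPM in FaDu AfaR and 57.2 and 145 CPM in FaDu ErlR. Without FaDu ErlR replicate 2 the fold changes were -0.77 for TGFA, -0.71 for AREG and -1.05 for EREG, and TGFA and AREG missed the threshold (adjusted p of 0.0732 and 0.122). Without FaDu AfaR replicate 2 none of the 3 passed (adjusted p from 0.0814 to 0.140).

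Whether the effect of afatinib resistance differed between the lines was tested as an interaction over the 12 libraries. Of 9 ligands tested, 3 differed (HBEGF, AREG and TGFA), where 18.6% of all genes did (10.5% with a higher effect in FaDu and 8% with a lower one). HBEGF had a difference of effects, FaDu minus Cal27, of 3.13 on the log2 scale (SE 0.657, edgeR adjusted p = 0.00593), from a value above parental cells in FaDu AfaR and a fall in Cal27 AfaR. The difference was 1.75 for AREG (edgeR adjusted p = 0.0369) and 1.42 for TGFA (adjusted p = 0.0475), both of which lay lower than parental cells in both lines and further below in Cal27. When each of the 8 libraries concerned was left out in turn, TGFA passed in 1 of 8 fits (adjusted p from 0.0422 to 0.155), AREG in 3 of 8 (0.0331 to 0.121) and HBEGF in 8 of 8 (0.00810 to 0.0289). AREG missed the threshold with DESeq2 (adjusted p = 0.0527), and TGFA with RLE scaling (0.0521) and with a minimum of 10 counts in every library (0.0508). BTC had a difference of -2.05, with a 95% interval of -3.50 to -0.60, and just missed the threshold (edgeR adjusted p = 0.0507). BTC passed with DESeq2 (adjusted p = 0.0241), RLE scaling (0.0469) and the groups compared alone (0.0146), but not with upper-quartile or ERCC scaling. EREG had a difference of -0.99, with a 95% interval of -1.94 to -0.04 and an adjusted p of 0.141.

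The effect of erlotinib resistance differed between the lines for 1 of 9 ligands tested, EGF, where 18.6% of all genes differed (9.8% with a higher effect in FaDu and 8.8% with a lower one). The EGF difference of 3.76 on the log2 scale (edgeR adjusted p = 0.0434) rested on 5 counts in FaDu ErlR, 6 in FaDu parental cells, 4 in Cal27 ErlR and 57 in Cal27 parental cells. It missed the threshold with DESeq2 (adjusted p = 0.0536) and without any 1 of the 8 libraries (0.0597 to 0.184). AREG had a difference of -1.10 (95% interval -2.16 to -0.04, edgeR adjusted p = 0.137).

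The make-up of the ligand pool was described as the share of each ligand in the summed RPKM of the 10 genes, with no test. The sum was 73.1 and 58.1 RPKM in FaDu parental cells, 39.3 and 32.5 in FaDu AfaR and 53.4 and 114 in FaDu ErlR. It was 77.3 and 63.5 RPKM in Cal27 parental cells, 21.0 and 25.5 in Cal27 AfaR and 167 and 99.9 in Cal27 ErlR. Both AfaR groups thus lay below their parental range, and Cal27 ErlR lay above it. In these bulk samples fewer cells that express a gene and less RNA per cell cannot be told apart.

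AREG made up 43.6% of the pool in FaDu parental cells, 42.3% in FaDu AfaR and 45.5% in FaDu ErlR. In Cal27 its share was 26.3% in parental cells, 12.6% in Cal27 AfaR and 38.6% in Cal27 ErlR. EREG held 38.2% in Cal27 AfaR, the group in which it led at 8.82 ± 0.298 RPKM, against 21.8% in Cal27 parental cells. HBEGF held 22.5% in Cal27 parental cells and 3.36% in FaDu parental cells. BTC held 6.88% in Cal27 AfaR, above its 0.216% to 3.47% in the other 5 groups, and EGF held at most 1.10%. The 3 neuregulins together held between 4.56% and 20.8% in single libraries, the highest value being in Cal27 AfaR replicate 2.

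**Figure D3:**
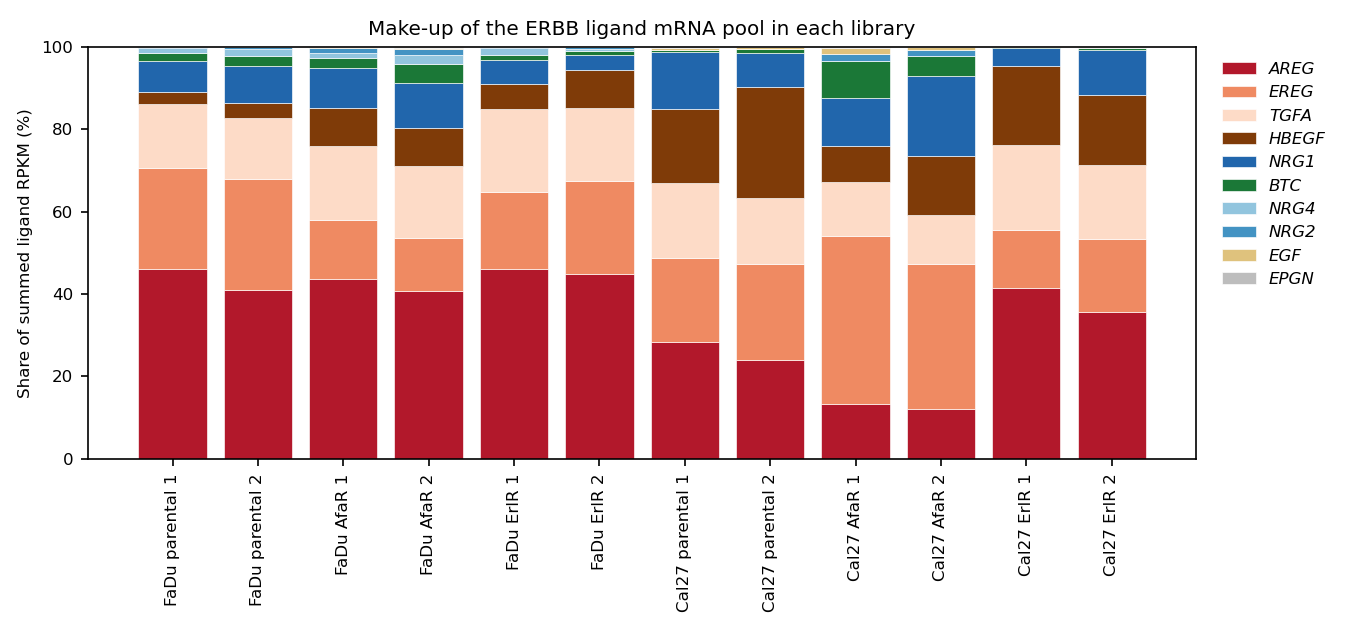
Share (y axis, %) of each of the 10 ERBB ligand genes in their summed RPKM, stacked for each of the 12 libraries (x axis). AREG takes 40.8% to 46.2% in the FaDu libraries, 12.0% and 13.2% in Cal27 AfaR and 35.6% and 41.6% in Cal27 ErlR, while EREG takes 35.4% and 41.0% in Cal27 AfaR.

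The ligands differed in how closely they varied together. Pearson correlations of log2(CPM + 0.5), centred on the mean of each line, were computed over the 12 libraries for the 8 ligands with a mean of at least 1 CPM, as a description, since the libraries share groups and replicates. AREG and TGFA, which lie on different chromosomes, had the highest value among the 28 pairs, r = 0.994, and each was the gene most like the other among 13458 genes. HBEGF followed both (r = 0.904 with TGFA and 0.883 with AREG). EREG, the neighbour of AREG on chromosome 4, had r = 0.746 with AREG, and BTC of the same cluster had r = -0.861 with AREG and -0.869 with TGFA. The values of BTC rested mainly on Cal27, where it lay between -1.58 and 1.47 around the line mean. In FaDu BTC lay between -0.66 and 0.33, and its lowest library, FaDu ErlR replicate 1, had AREG at -0.01. The highest FaDu library for AREG, FaDu ErlR replicate 2 at 1.04, had BTC at -0.01. NRG2 and NRG4 had negative r with each other (-0.681), and NRG4 was close to 0 with AREG and TGFA (0.057 and 0.024), its values in Cal27 being near 0 throughout.

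Among genes other than the ligands, AREG was most like NOP16 (r = 0.989) and DDX21 (0.987), which act in ribosome assembly, and TGFA was most like LYPLA1 and BMAL2 (both 0.984). EREG was most like TXNL4A (0.961), BTC like NAT14 (0.981), HBEGF like FXYD5 (0.961), NRG1 like GOT1 (0.969), NRG2 like CAMK2D (0.942) and NRG4 like TMEM151A (0.905). These are the highest of many values over 12 libraries that fall into 6 groups.

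**Figure D4:**
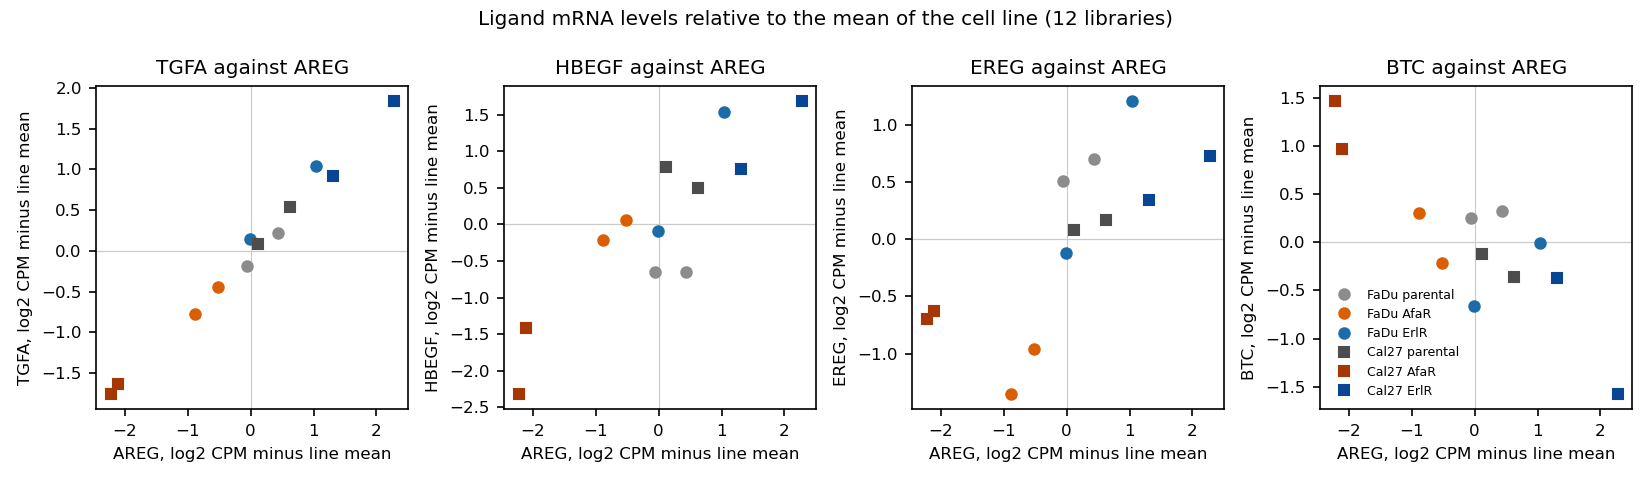
Levels of TGFA, HBEGF, EREG and BTC (y axes) against AREG (x axes), each as log2(CPM + 0.5) minus the mean of its cell line, for 12 libraries colored by group (circles FaDu, squares Cal27). TGFA lies close to a line with AREG (r = 0.994) and EREG is more scattered (r = 0.746). BTC runs the other way among the Cal27 squares (r = -0.861 over all 12 libraries), its lowest library being Cal27 ErlR replicate 1.

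The receptors of these ligands were read in the same libraries. EGFR was at 545 and 503 CPM in FaDu parental cells and 1323 and 1285 CPM in Cal27 parental cells, and it fell in Cal27 AfaR, to 715 and 712 CPM (log2 fold change -0.87, edgeR adjusted p = 0.00139). ERBB3, the receptor for NRG1 and NRG2, fell in Cal27 AfaR from 28.6 and 45.8 CPM to 12.3 and 6.96 CPM (log2 fold change -1.94, edgeR adjusted p = 0.00143). EGFR was slightly higher in FaDu AfaR (0.34, adjusted p = 0.0490), but not past the threshold without FaDu parental replicate 1 or 2 or FaDu AfaR replicate 2 (adjusted p from 0.143 to 0.290). ERBB2 did not pass in any resistant model, and ERBB4, a receptor for HBEGF, BTC, EREG and the neuregulins, was at 0 to 0.290 CPM in the 12 libraries. Of the 3 receptor genes tested, 2 were lower in Cal27 AfaR, where 18.2% of all genes were lower. In FaDu AfaR 1 was higher, where 10.4% of all genes were higher. In the ErlR models 0 of the 3 receptor genes tested passed by edgeR, where 4.18% of all genes did in FaDu ErlR and 27.6% in Cal27 ErlR.

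Of 14 genes for ligand shedding and trafficking, 5 rose and 0 fell in FaDu AfaR, where 10.4% of all genes tested rose and 7.5% fell, and 5 rose and 3 fell in Cal27 AfaR, where 19.5% of all genes rose and 18.2% fell. ADAM12 (log2 fold change 1.82 in FaDu AfaR and 3.34 in Cal27 AfaR), ADAM19 (2.15 and 2.17), both metalloproteases, and TIMP3, an inhibitor of ADAM17 (1.32 and 2.41), rose in both. In FaDu AfaR the 3 genes missed the threshold without FaDu parental replicate 1 (ADAM12 adjusted p = 0.0514, ADAM19 0.119, TIMP3 0.141), and ADAM19 and TIMP3 also without FaDu AfaR replicate 2 (0.0800 and 0.0912). ADAM17, the main sheddase of AREG, TGFA, EREG and HBEGF, did not pass in the AfaR models (0.22 and 0.03) and fell in Cal27 ErlR (log2 fold change -0.63, edgeR adjusted p = 0.00766), though not without Cal27 parental replicate 2 (-0.52, adjusted p = 0.0777). In Cal27 ErlR 1 of the 14 rose and 5 fell, against 12.3% and 15.3% of all genes, with RHBDL2 (-2.33) and RHBDF2 (-1.64), rhomboid family genes, falling furthest, and in FaDu ErlR 0 passed by edgeR. Of 10 receptor antagonists and turnover genes, LRIG1, a negative regulator of ERBB receptors, rose in FaDu AfaR (2.83) and Cal27 AfaR (1.60). The list had 1 higher and 1 lower in FaDu AfaR, 0 in FaDu ErlR, 3 higher in Cal27 AfaR and 5 higher in Cal27 ErlR, where 17.9%, 4.18%, 37.6% and 27.6% of all genes tested passed.

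ERK output genes are induced or switched on as feedback when the pathway downstream of the receptors is active. Of all genes tested, 12.3% rose and 15.3% fell in Cal27 ErlR, and 19.5% and 18.2% in Cal27 AfaR. In FaDu AfaR 10.4% rose and 7.5% fell, and in FaDu ErlR 2.58% and 1.6%. Of the 15 genes of the list, 13 rose and 0 fell in Cal27 ErlR, led by SPRY4 (log2 fold change 2.67), DUSP6 (2.09) and PHLDA1 (1.71), where the median of the list was 0.977 and that of all genes -0.027. In Cal27 AfaR 3 rose and 4 fell, with SPRED3 (2.69) and EGR1 (-1.91) moving furthest and ETV4 at -1.48. EGR1 missed the threshold without Cal27 AfaR replicate 1 (-1.31, adjusted p = 0.0766). In FaDu AfaR 4 fell and 0 rose, among them EGR1 (-3.17), DUSP5 (-1.46) and DUSP6 (-1.35). EGR1 was at 123 and 695 CPM in FaDu parental replicates 1 and 2 and 60.0 and 32.0 CPM in FaDu AfaR, and its fold change was -1.45 without parental replicate 2 (adjusted p = 0.0476) and missed the threshold without FaDu AfaR replicate 2 (-2.79, adjusted p = 0.110). DUSP6 missed it without FaDu parental replicate 1 or 2 or FaDu AfaR replicate 2 (adjusted p from 0.0562 to 0.0813). In FaDu ErlR 2 rose (SPRED3 and SPRY2) and 1 fell (DUSP5), and each missed the threshold without FaDu parental replicate 1 or 2 or FaDu ErlR replicate 2, and DUSP5 also without FaDu ErlR replicate 1 (adjusted p from 0.0569 to 0.249). DUSP6 was at 77.1 and 72.7 CPM in Cal27 ErlR replicates 1 and 2, a narrower gap than the 115 and 58.6 CPM of AREG. The part of ERK output in the ligand levels was not tested.

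**Figure D5:**
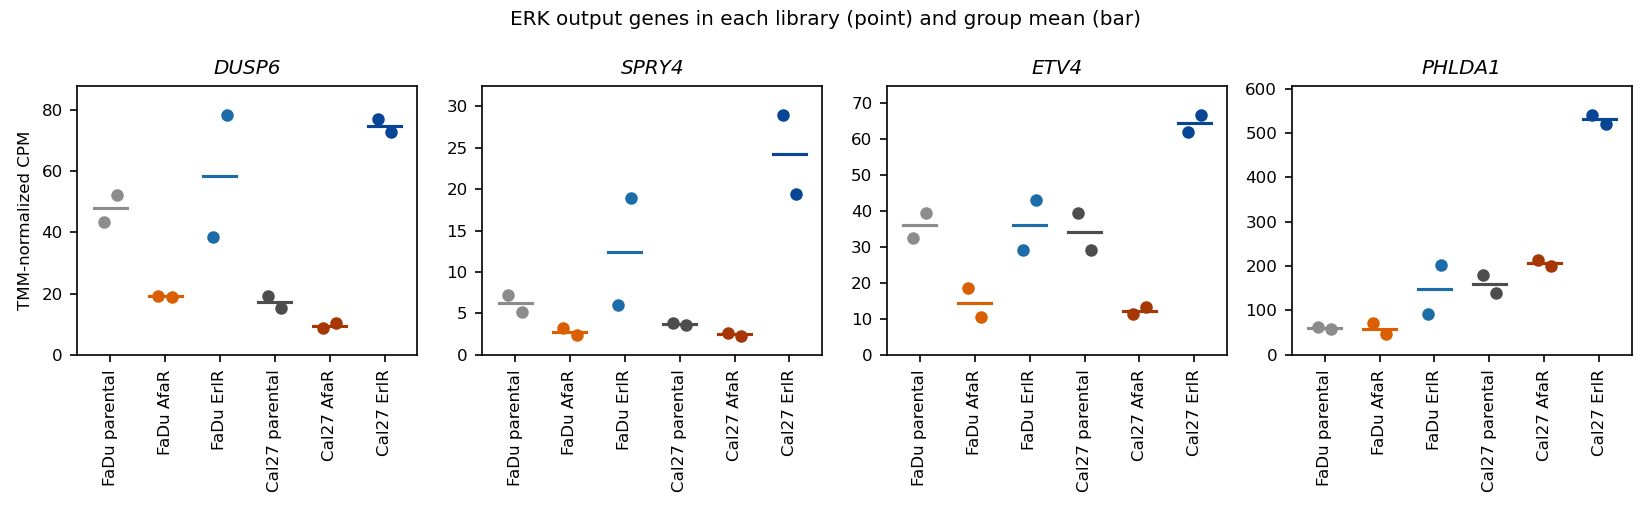
TMM-normalized CPM (y axes from 0) of 4 ERK output genes in the 6 groups (x axis), with a point per library and a bar at the mean of 2. SPRY4, ETV4 and PHLDA1 are highest in Cal27 ErlR, the highest library of DUSP6 is FaDu ErlR replicate 2 at 78.4 CPM, and ETV4 is lowest in the AfaR groups.

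Markers of other cell types were measured beside these results. Of all genes tested, 19.5% were higher and 18.2% lower in Cal27 AfaR, and 12.3% and 15.3% in Cal27 ErlR. In FaDu AfaR 10.4% were higher and 7.5% lower, and in FaDu ErlR 2.58% and 1.6%. Of 12 such markers, 7 to 10 were detected in a library, and their summed level was 14.0 to 80.6 CPM in 10 libraries and 324 and 325 CPM in Cal27 AfaR, most of it COL1A1 at 265 and 273 CPM. PDGFRB, a marker of pericytes and fibroblasts, was at 12.7 and 11.8 CPM in Cal27 AfaR and at 0 to 1.80 CPM in the other 10 libraries. Of the 8 markers tested in Cal27 AfaR, 2 were higher (COL1A1 and PDGFRB), 1 was lower (CD68, a macrophage marker, at 1.19 and 1.57 CPM against 2.97 and 2.97) and 5 did not pass, with a median log2 fold change of -0.111. CD68 missed the threshold without Cal27 parental replicate 1 or 2 or Cal27 AfaR replicate 1 (log2 fold changes from -1.11 to -0.92). In Cal27 ErlR, 5 of 8 were lower and 0 higher, with a median of -1.461, among them CDH5, an endothelial cadherin, at 1.08 and 4.15 CPM against 30.3 and 30.7. Of the 8 mesenchymal markers in Cal27 ErlR, 3 were lower (CDH2, FN1 and SPARC) and 1 higher (SNAI2). In FaDu AfaR and FaDu ErlR, 1 of 8 other cell type markers was higher (ACTA2, 1.76 and 1.64) and 0 lower. In FaDu ErlR ACTA2 missed the threshold when any library of the groups compared was left out (log2 fold changes 1.59 to 1.70). In FaDu AfaR it missed the threshold without FaDu parental replicate 1 (1.76). The part of these markers in the rise of AREG and TGFA and the fall of EGF in Cal27 ErlR was not tested. CD3E and GFAP, which define T cells and astrocytes, were at 0 to 0.366 CPM. The fall of AREG, TGFA, HBEGF, NRG1 and EREG and the rise of NRG2 and BTC in Cal27 AfaR came with these markers, with the lower squamous markers and with higher vimentin, and the part of a change of cell state in them was not tested.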

How the data were processed

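The material was 12 poly(A) RNA libraries, 2 for each of 6 groups. The authors deposited unnormalized counts for each Ensembl gene and ERCC spike-in, and the submitters' processing notes name Trimmomatic 0.36, STAR 2.5.2b, featureCounts and Subread 1.5.2 on GRCh38. The strand setting is not given in the sources used here. Their tables of normalized counts were not used. All libraries carry the same batch label.

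Samples were grouped by line and resistance from their titles. The tests were run in R 4.3.3 on these counts, using edgeR 4.0.16 (TMM, filterByExpr, glmQLFit, glmQLFTest, Benjamini-Hochberg over all genes tested), with 1 fit per line over 6 libraries (3 residual degrees of freedom, 15092 genes in FaDu and 15269 in Cal27) and 1 fit over 12 libraries (16240 genes) for the parental lines and the interactions. The model was tested on simulated data. Replicates of a group differed by more than sampling noise. EGF and EPGN were filtered out in FaDu, EPGN and NRG4 in Cal27 and EPGN in the 12-library fit. Intervals of ratios of counts cover counting error only. RPKM divides CPM by the exon length in the count tables. Of 58051 gene identifiers 56948 were found in GENCODE.

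The members, the pathway and marker lists and the motifs were chosen with earlier results of these data known, and the motifs with the promoter sequences in view. Each ligand that passed is named in its comparison, and some ligands that did not pass are not named. Of each list at most 3 called genes with the largest fold are named per resistant model. For each ligand with a mean of at least 1 CPM the genes most correlated with it are named. ADAM17, ERBB2, ERBB4 and single markers were named outside these rules, after their values were seen. Alternatives were DESeq2 1.42.0, other scalings and filters, other sets of libraries, a replicate block and leaving out each library.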

Additional observations from a re-analysis of the deposited data

Results flagged for a closer look

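Differences between the lines in the effect of resistance, tested as interactions in edgeR over 12 libraries, stood out for 4 ligand results. For afatinib resistance the difference, FaDu minus Cal27 on the log2 scale, was 3.13 for HBEGF, 1.75 for AREG and 1.42 for TGFA, and for erlotinib resistance it was 3.76 for EGF. HBEGF is the result of these that passed in each fit that left out a library. The EGF value rests on counts of 2 to 4 per library in FaDu parental, FaDu ErlR and Cal27 ErlR cells. With 2 libraries per group, a library standing apart from its group was not looked for.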

How the results depend on the processing

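The limits lie in 2 libraries per group. In FaDu AfaR, 2 ligands passed, and 5 did at an unadjusted p under 0.05, 5 without a filter and 4 with the groups compared alone. There was 1 with a log2 fold change over 1, with upper-quartile scaling or with all 12 libraries. Of all genes, 2695 of 15092 passed, 5306 unadjusted, 3686 of 28701 without a filter and 2598 of 14801 with the groups compared alone. A log2 fold change over 1 left 1122 genes, upper-quartile scaling 2442 and all 12 libraries 2481 of 16240. In FaDu ErlR 0 passed, against 3 unadjusted, 1 by DESeq2, 4 by ERCC scaling and 3 without a filter. Of all 15092 genes 631 passed there, against 3205 unadjusted, 1142 by DESeq2, 5747 by ERCC scaling and 1728 of 28701 without a filter. In Cal27 ErlR 5 ligands passed without a filter, beside 4912 of all 29055 genes. With at least 10 counts in every library, 5 ligands passed between Cal27 AfaR and Cal27 ErlR, 1 between the parental lines and 0 for the erlotinib interaction, fewer ligands being tested. Of all genes, 6301 of 12443, 7088 of 11738 and 2745 of 11738 then passed, in that order. The afatinib interaction had 5 unadjusted, 5 without a filter and 5 with the groups compared alone, and the erlotinib one 2 unadjusted, 0 by DESeq2 and 4 without a filter. Of all 16240 genes, 5166 passed unadjusted for afatinib and 5379 for erlotinib, and 3259 by DESeq2 for erlotinib. Without a filter 3505 and 3530 of 32320 genes passed. With the groups compared alone, 2988 of 16235 passed for afatinib. A fit that left out a library had 1 library in a group. In every comparison, each such fit had fewer of all genes passing than the fit that kept the library. Leaving out each library gave 0 to 1 ligands in FaDu AfaR, 0 to 2 in FaDu ErlR, 5 to 7 in Cal27 AfaR, 2 to 6 in Cal27 ErlR, 0 to 4 between the FaDu and 6 to 7 between the Cal27 derivatives, 3 to 5 between the parental lines, and 1 to 3 and 0 to 2 for the interactions.

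Replicate numbers did not pair the samples (correlations of deviations -0.22 to 0.22 over 15 pairs of groups, 4 over 0.1). The replicate block left 0 ligands for the erlotinib interaction (EGF, adjusted p = 0.0510) and 3 for the afatinib one, where TGFA no longer passed (0.0516) and BTC did (-2.13, 0.0434). Of all 16240 genes, 2885 passed for the erlotinib and 2902 for the afatinib interaction with the block. With crossed pairing, chosen after seeing the data, 7 ligands passed in Cal27 AfaR and 3 between the FaDu derivatives, as without it. Of all genes, 6312 of 15269 and 2898 of 15092 then passed. ERCC scaling moved the median log2 fold change of all genes to 0.181 in FaDu AfaR, 0.487 in FaDu ErlR and 0.617 between the parental lines, and of the genes that passed, 90.5% were then higher in FaDu AfaR (58.0% by TMM), 98.4% in FaDu ErlR (61.6%) and 82.2% between the parental lines (51.7%). The cause was not tested.

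The sign changed for ligands that had not passed. By ERCC scaling the log2 fold change was 0.074 for NRG4 in FaDu ErlR, -0.28 for NRG1 between the FaDu derivatives, 0.45 for EREG between the parental lines and 0.069 for EREG in the erlotinib interaction, and for NRG1 between the FaDu derivatives it was -0.0009 by DESeq2 and by RLE scaling. Leaving out each library gave sign changes within these ranges. In FaDu ErlR AREG ran from -0.24 to 0.81, EREG from -0.75 to 0.59 and NRG2 from -0.11 to 2.16. EGF ran from -0.38 to 0.12 in Cal27 AfaR and NRG1 from -0.21 to 0.79 in Cal27 ErlR. Between the FaDu derivatives HBEGF ran from -1.66 to 0.0003, NRG1 from -0.20 to 0.25, NRG2 from -0.18 to 1.75 and NRG4 from -0.56 to 0.27. NRG1 ran from -0.029 to 0.98 between the parental lines. In the afatinib interaction NRG1 ran from -0.032 to 1.15 and NRG2 from -1.56 to 0.034. In the erlotinib interaction TGFA ran from -1.01 to 0.062, EREG from -1.17 to 0.18, BTC from -0.48 to 1.98, HBEGF from -0.057 to 1.61 and NRG2 from -1.09 to 1.18.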
